A study of Mus musculus with 13 samples.

Results

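A CDR3 is the stretch of a T cell receptor chain that lies over the peptide, and it spans the join between a V gene and a J gene. Here a CDR3 amino acid sequence was called convergent in a sample when 2 or more distinct nucleotide sequences of that sample encoded it. Members were selected on the number of nucleotide sequences per functional CDR3 of each TCRα library, separately in each library, and a CDR3 with 1 nucleotide sequence in the library was called single. Of 41501 distinct functional CDR3s in the 13 libraries, 3943 (9.50%) were convergent in at least 1 library. Counted per library, 7162 of 69470 CDR3s (10.3%) were convergent, and 62308 were single.

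The libraries came from regulatory T (Treg) cells of male C57BL/6 mice of genotype Foxp3LSL/yCd4creERT2. In these mice a loxP-flanked Thy1.1 reporter and STOP cassette silences Foxp3, the transcription factor that defines Treg cells, and a tamoxifen-inducible Cre expressed from Cd4 removes the cassette. Every mouse had been given 4-hydroxytamoxifen once, at postnatal day 14, and no untreated or Foxp3-sufficient group was compared here. Spleen and lymph node TCRβ+CD4+GFP+Thy1.1- cells, termed rescued Treg cells, were sorted 1.5 months (mice aged 8 weeks, n = 2), 3 months (3.5 months of age, n = 4), 5 months (5.5 months of age, n = 2) and 7 months (7.5 months of age, n = 5) after treatment. The comparison between time points asks how the receptor repertoire of Treg cells formed in a single wave held up with age. TCRα libraries hold no other transcripts, so the sorted identity could not be checked against Treg marker genes.

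The α chain locus joins one of many V genes (TRAV) to one of many J genes (TRAJ) with no D gene between them. Nucleases trim the gene ends, and terminal deoxynucleotidyl transferase (TdT) adds bases that no gene encodes. Because most amino acids have several codons, and because V genes of different families can end in codons for the same residues, different rearrangements can encode 1 amino acid sequence. Receptors shared between individuals are known to be rich in such CDR3s.

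The libraries held 509818 to 936831 counts, of which 477052 to 882170 were functional, in 4828 to 7998 functional nucleotide sequences. Libraries were not equally distinct. 3 months replicate 4 shared 974 nucleotide sequences with 5 months replicate 1 (a Jaccard index of 8.80%) and 1101 with 1.5 months replicate 1 (8.12%), against a lowest value of 3.02% over all pairs of libraries. The part of this overlap in the results was not tested; the time comparisons, the contrasts with single CDR3s and the use of J genes and V families were also computed without each library and without sequences whose share was at least 100 times larger in another library.

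The sequences of the CDR3 that was convergent in all 13 libraries with the most nucleotide sequences show what convergence looked like. It joined mostly TRAV4 or TRAV14 genes to TRAJ12 (chr14:54206553-54206610, plus strand, GRCm38) and was 12 residues long. It had 8 nucleotide sequences in 1.5 months replicate 1, from 5 V families, a number of families that 1 other CDR3, with TRAJ31, also reached in that library and none exceeded in any library. Its 6 largest there are printed 5′ to 3′, with the bases that differ among them in capitals.
TRAV4D-4, 559 counts: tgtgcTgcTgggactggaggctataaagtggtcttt
TRAV4D-4, 153 counts: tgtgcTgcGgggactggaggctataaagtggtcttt
TRAV7-1, 141 counts: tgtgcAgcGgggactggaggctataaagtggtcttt
TRAV4D-4, 107 counts: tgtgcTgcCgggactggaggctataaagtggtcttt
TRAV14D-3-DV8, 52 counts: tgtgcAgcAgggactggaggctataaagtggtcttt
TRAV12D-2, 36 counts: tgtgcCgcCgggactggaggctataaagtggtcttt

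All 6 differed only in the last base of a pair of alanine codons, GCN, at the V to J border. The germline V genes, from the codon of the conserved cysteine to the end of the gene, and the germline J gene (GENCODE M21, GRCm38, plus strand) are printed for comparison.
TRAV4D-4, chr14:52991377-52991389: tgtgctgctgagg
TRAV14D-3-DV8, chr14:53079033-53079045: tgtgcagcaagtg
TRAV7-1, chr14:52655316-52655328: tgtgcagtgagca
TRAV12D-2, chr14:52916413-52916426: tgtgctttgagtga
TRAJ12, chr14:54206553-54206610: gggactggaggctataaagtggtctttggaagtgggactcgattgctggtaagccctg

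The TRAV4D-4 sequence with 559 counts and the TRAV14D-3-DV8 sequence had 0 inserted bases, so the trimmed end of each V gene was followed directly by TRAJ12. The TRAV12D-2 sequence kept 5 V bases and had 4 inserted bases. The sequence with 559 counts was found in 10 libraries and that with 107 counts in 12, whereas the TRAV12D-2 sequence was found in 1.

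A second kind of convergence was seen with TRAJ15 (chr14:54204422-54204481, plus strand). The CDR3 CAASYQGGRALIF, which joins mostly TRAV7, TRAV14 or TRAV4 genes to TRAJ15, had the most nucleotide sequences in any library, 10 in 5 months replicate 2. They are shown, after their values were seen, because they fall into 5 pairs that differ at 1 base of the J gene.
TRAV14N-3, 844 counts: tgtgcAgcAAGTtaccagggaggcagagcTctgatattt
TRAV14-3, 59 counts: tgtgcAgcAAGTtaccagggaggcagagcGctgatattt
TRAV7D-2, 119 counts: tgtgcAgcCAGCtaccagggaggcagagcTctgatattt
TRAV7D-2, 9 counts: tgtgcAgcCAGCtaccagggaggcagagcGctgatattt
TRAV4D-4, 113 counts: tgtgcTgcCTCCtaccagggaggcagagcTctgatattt
TRAV4D-4, 7 counts: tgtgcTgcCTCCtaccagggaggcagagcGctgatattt
TRAV7-4, 39 counts: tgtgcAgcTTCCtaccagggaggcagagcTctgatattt
TRAV7-4, 4 counts: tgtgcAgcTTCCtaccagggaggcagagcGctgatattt
TRAV14N-3, 34 counts: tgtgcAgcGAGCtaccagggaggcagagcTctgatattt
TRAV14N-3, 3 counts: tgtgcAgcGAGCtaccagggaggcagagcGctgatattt

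In each pair the sequence with T was the larger. The last capital of each line is the 10th base from the 3′ end of the CDR3, the third base of an alanine codon, which reads GCT in 5 sequences and GCG in the other 5. The germline TRAJ15 gene has T there, at base 20 of the gene (chr14:54204441), and the change is written T20G, counted from 1 at the 5′ end of the gene. The capital marks that base in the germline gene.
TRAJ15, chr14:54204422-54204481: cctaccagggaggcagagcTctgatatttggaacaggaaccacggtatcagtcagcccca

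T20G was present in every library. Of 4458 functional TRAJ15 nucleotide sequences with this base assigned to J, 1727 (38.7%) carried G, but they held 6.06% of the counts. By library, G was in 35.5% to 45.8% of TRAJ15 sequences (median 38.1%) and in 4.75% to 7.89% of TRAJ15 counts (median 5.45%). Of the 1727 sequences with G, 1585 (91.8%) had a partner in the same library that was identical but for T at this base. The count with G divided by that with T had a median of 0.0798 (quartiles 0.0660 and 0.10), and the lowest ratio was 0.0506. The study's error correction discarded a sequence with 1 mismatch to another when its count was under 0.05 of the other's, so ratios below that were removed before deposit. Whether G was in the mRNA or arose in library preparation or sequencing was not tested, and many of the results below are also given with variants that differ only at J bases merged.

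**Figure D1:**
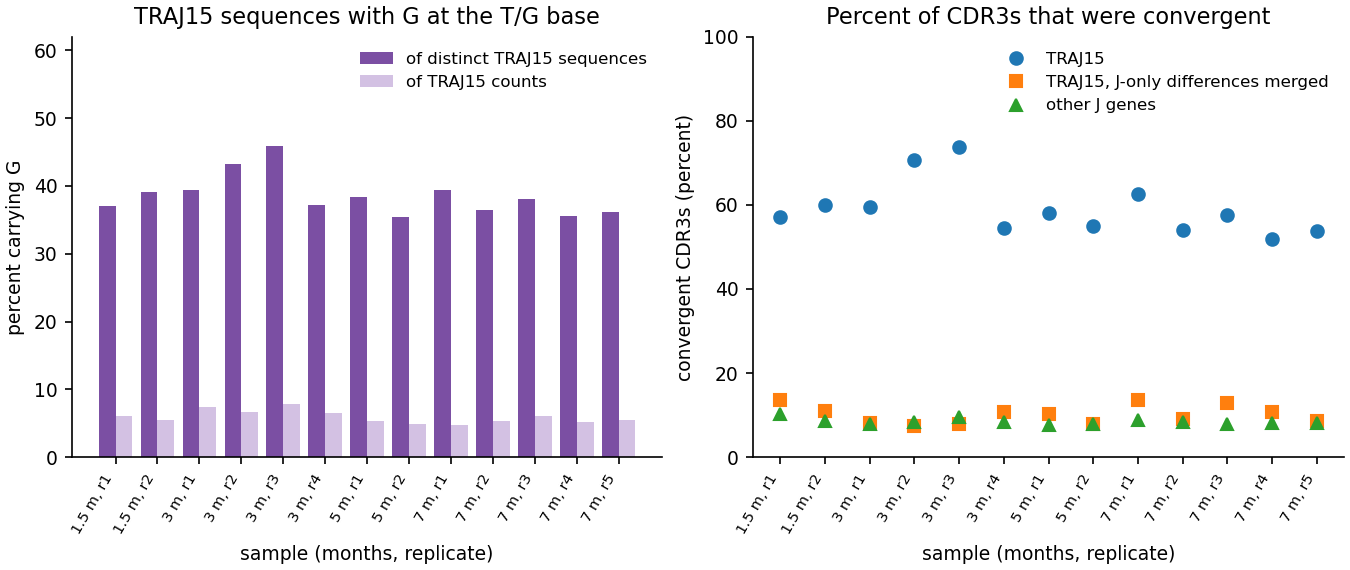
Left, percent of distinct TRAJ15 nucleotide sequences (dark bars) and of TRAJ15 counts (light bars) with G at the 10th base from the CDR3 end, by library. Right, percent of CDR3s that were convergent, for TRAJ15 (circles), for TRAJ15 after variants that differ only at J bases were merged (squares) and for all other J genes (triangles). TRAJ15 points lie between 51.9% and 73.7%, and fall to between 7.33% and 13.6% on merging, beside 7.71% to 10.3% for the other J genes.

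Convergent CDR3s numbered 419 to 832 per library. At 1.5 months there were 832 and 582, at 3 months 602, 536, 651 and 591, at 5 months 464 and 419, and at 7 months 481, 561, 479, 431 and 533. The lower of the 1.5-month libraries lay inside the range of the 3-month libraries, and both 1.5-month libraries were above all 5-month and 7-month libraries. Merging variants that differ only at J bases into the larger left 311 to 660 per library and removed 19.8% to 29.95% of convergent CDR3s. Merging all variants within 2 mismatches left 67 to 179.

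**Figure D2:**
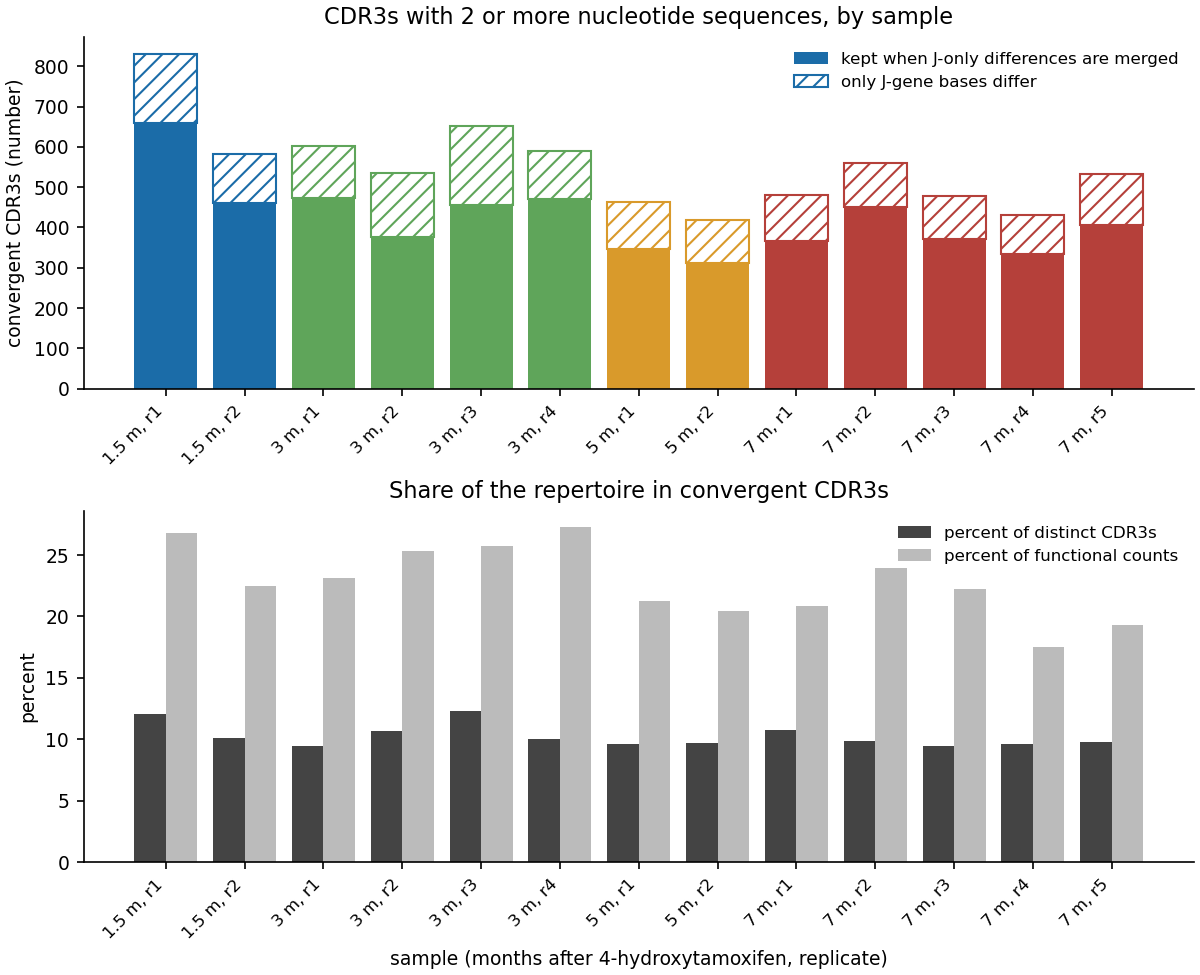
Upper panel, number of convergent CDR3s in each library, with the hatched part lost when variants that differ only at J-gene bases are merged; colors mark months after treatment. Lower panel, percent of distinct functional CDR3s (dark) and of functional counts (light) in convergent CDR3s. The 2 libraries of 5 months hold 464 and 419 convergent CDR3s, but their percent of distinct CDR3s (9.64% and 9.74%) is close to that of most other libraries.

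The mean number was 707 ± 177 (SD, n = 2) at 1.5 months, 595 ± 47.2 (n = 4) at 3 months, 442 ± 31.8 (n = 2) at 5 months and 497 ± 50.8 (n = 5) at 7 months. Against 1.5 months the later means stood -112 (exact permutation p = 0.225), -266 (exact p = 0.0142) and -210.0 (exact p = 0.0204) CDR3s apart, each p corrected for the 3 time points. Over all 15 comparisons of 5 measures, 0 passed at an adjusted p of 0.05 and 3 had an unadjusted p below it; these 2 had adjusted p = 0.102 in the exact permutation test. Without 1.5 months replicate 1, the differences at 3, 5 and 7 months were 13, -140.5 and -85, with the sign at 3 months turned. Without 1.5 months replicate 2 they were -237, -390.5 and -335. Either fit leaves only the other 1.5-month library in its group, so the spread then comes from the other time points. Without 5 months replicate 1 or 2 the exact p was 0.0732 or 0.134 at 5 months and 0.0581 or 0.0720 at 7 months. The mean number of functional nucleotide sequences was 7247.5 at 1.5 months, 6399 at 3 months, 5108 at 5 months and 5643 at 7 months. At an equal number of 4828 nucleotide sequences per library the expected differences were 11.4, 37.5 and 21.6, with the sign turned (exact permutation p of 0.674 or more). At an equal number of counts per library the differences kept their sign, at -121 (exact permutation p = 0.173), -258 (p = 0.0179) and -200.2 (p = 0.0227).

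Convergent CDR3s were 9.46% to 12.3% of the distinct CDR3s of a library. The mean was 11.1% ± 1.37 (n = 2) at 1.5 months, 10.6% ± 1.22 (n = 4) at 3 months, 9.69% ± 0.0745 (n = 2) at 5 months and 9.91% ± 0.509 (n = 5) at 7 months, with exact permutation p from 0.255 to 0.892. The differences at 5 and 7 months were -1.42 and -1.20 percentage points. Without 1.5 months replicate 1 they were -0.450 and -0.231, and without replicate 2 -2.38 and -2.16, each fit leaving only the other library of that time point. After merging J-only variants the difference at 5 months was -1.59 percentage points (exact permutation p = 0.0458). With 2 or more V families required it was -1.02 (exact permutation p = 0.0122). At equal numbers of nucleotide sequences it turned to 0.968 (exact permutation p = 0.674), and to 0.329 (p = 0.903) with J-only variants merged as well. By the rule each has at least 2 nucleotide sequences, and they held 18.9% to 24.2% of the functional nucleotide sequences of a library (mean 20.5%) and 17.5% to 27.3% of functional counts. In 7 months replicates 1, 4 and 5 the share of counts (20.9%, 17.5% and 19.3%) was below the share of sequences (21.4%, 19.4% and 19.6%), and in the other 10 libraries it was above. The share of counts was 24.7% ± 3.02 (n = 2), 25.4% ± 1.70 (n = 4), 20.9% ± 0.565 (n = 2) and 20.8% ± 2.47 (n = 5) from the first to the last time point, and no difference from 1.5 months passed the exact permutation test (p from 0.137 to 0.958). Without 1.5 months replicate 2 the difference at 7 months was -6.03 percentage points, and without 1.5 months replicate 1 it was -1.75. Either fit leaves only the other 1.5-month library in its group, so the spread comes from the other time points.

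Most members had 2 nucleotide sequences. Of 7162, 5822 (81.3%) had exactly 2, 952 had 3, 283 had 4, 69 had 5, 23 had 6, 8 had 7, 4 had 8 and 1 had 10. Those with 2 are the members just inside the rule, and in 7.95% to 23.8% of them, by library, the second sequence rested on 1 count. Just outside it, the sequence of a single CDR3 had a median of 35 to 99 counts by library.

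V genes differed among the variants of many members. By library, 63.9% to 71.7% of members had 2 or more V genes and 44.1% to 52.8% had 2 or more V families, while 28.3% to 36.1% kept 1 V gene. Mouse V gene families include duplicated copies that are nearly identical, as the TRAV14N-3 and TRAV14-3 calls of the pair with 844 and 59 counts show. Calls between such copies are uncertain, and families are the firmer unit. Other genes of a family differ, and the germline ends of TRAV7-3 and TRAV7D-2 encode CAVS and CAAS. J genes almost never differed, with 0 to 2 members per library using 2 J genes. The share with 2 or more V genes was 70.6% ± 0.544 (n = 2) at 1.5 months, 67.9% ± 3.22 (n = 4) at 3 months, 64.5% ± 0.474 (n = 2) at 5 months and 67.6% ± 2.04 (n = 5) at 7 months. For 5 months against 1.5 months the difference of -6.04 percentage points had p = 0.0614 in the exact permutation test. That p was 0.0261 without 3 months replicate 3 or replicate 4 and 0.0495 without 7 months replicate 1. With J-only variants merged the difference was -3.33 (exact permutation p = 0.173), and with variants within 2 mismatches merged it turned to 2.22 (p = 0.560).

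The largest 2 sequences of each member were compared base by base. They differed at 1 base in 4266 of 7162 members, at 2 in 1751, at 3 in 709 and at 4 or more in 436. Sequences that encode 1 CDR3 can differ only in synonymous codons, which mostly differ at the third base. On average over libraries, 86.3% ± 1.80 (SD, n = 13) of differing bases lay in the third position of a codon, and 40.7% ± 2.08 lay in an alanine codon, the residue that follows the conserved cysteine in many V genes. Alanine was 16.01% ± 0.321 of the residues of members. Serine codons held 16.1% ± 1.17 of differing bases, arginine codons 7.43% ± 0.939 and glycine codons 7.24% ± 0.831, beside 8.24%, 4.73% and 11.5% of residues. With pairs that differ only at J bases left out, alanine still held 34.4% ± 1.87.

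The differing bases lay only in J for 1720 members, only in V for 1747 and in the junction or in more than 1 segment for 3695. Of the J-only pairs, 1284 used TRAJ15. Among members whose largest 2 sequences came from 2 V families, TRAV14 with TRAV7 was the most frequent combination, at 22.2% ± 3.58 (n = 13) of such pairs. TRAV14 with TRAV5 made 9.37% ± 2.32, TRAV3 with TRAV7 8.68% ± 2.19 and TRAV14 with TRAV4 7.99% ± 1.62. TRAV12 with TRAV6 made 6.66% ± 2.24.

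Counts were shared unevenly among the variants of a CDR3. On average the largest held 72.9% to 76.9% of the counts of a member, by library. It held over 90% in 25.8% to 35.6% of members. The mean share of the largest variant was 73.6% ± 0.981 (n = 2) at 1.5 months, 75.4% ± 0.372 (n = 4) at 3 months, 76.6% ± 0.319 (n = 2) at 5 months and 75.7% ± 1.23 (n = 5) at 7 months. All 11 later libraries lay above the lower 1.5-month library, and 7 months replicate 4, at 74.2%, lay below the higher one, at 74.3%. The differences at 3 and 7 months were 1.80 and 2.09 percentage points (exact permutation p = 0.110 and 0.0565). With sequences of 1 count left out they were 2.60 and 2.45 (exact permutation p = 0.0233 and 0.0259). The difference at 5 months was 3.05 percentage points (exact permutation p = 0.0204, adjusted p = 0.102). With J-only variants merged it was 2.94 (exact permutation p = 0.0648), and with variants within 2 mismatches merged 1.49 (p = 0.700). Without 1.5 months replicate 2, or 5 months replicate 1 or 2, the exact p was 0.0913, 0.106 or 0.0546.

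Balance differed with where the sequences differed. The second largest count was a median of 0.403 of the largest for pairs from 2 V families (3204 pairs), 0.422 for V genes of 1 family (1246 pairs) and 0.360 for 1 V gene (992 pairs), J-only pairs left out. It was 0.0804 for J-only pairs of TRAJ15 (quartiles 0.0666 and 0.101), and 0.146 for J-only pairs of other J genes (436 pairs). In each library the median of the TRAJ15 pairs, 0.0700 to 0.0897, lay below that of pairs from 2 V families, 0.331 to 0.453. The second count was at least 0.5 of the first in 0.857% of the TRAJ15 pairs and in 40.6% of pairs from 2 V families. None of the 4266 pairs with 1 mismatch had a ratio under 0.05, the lowest being 0.0504, as the study's correction requires, so the low end of balance could not be measured for them.

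**Figure D3:**
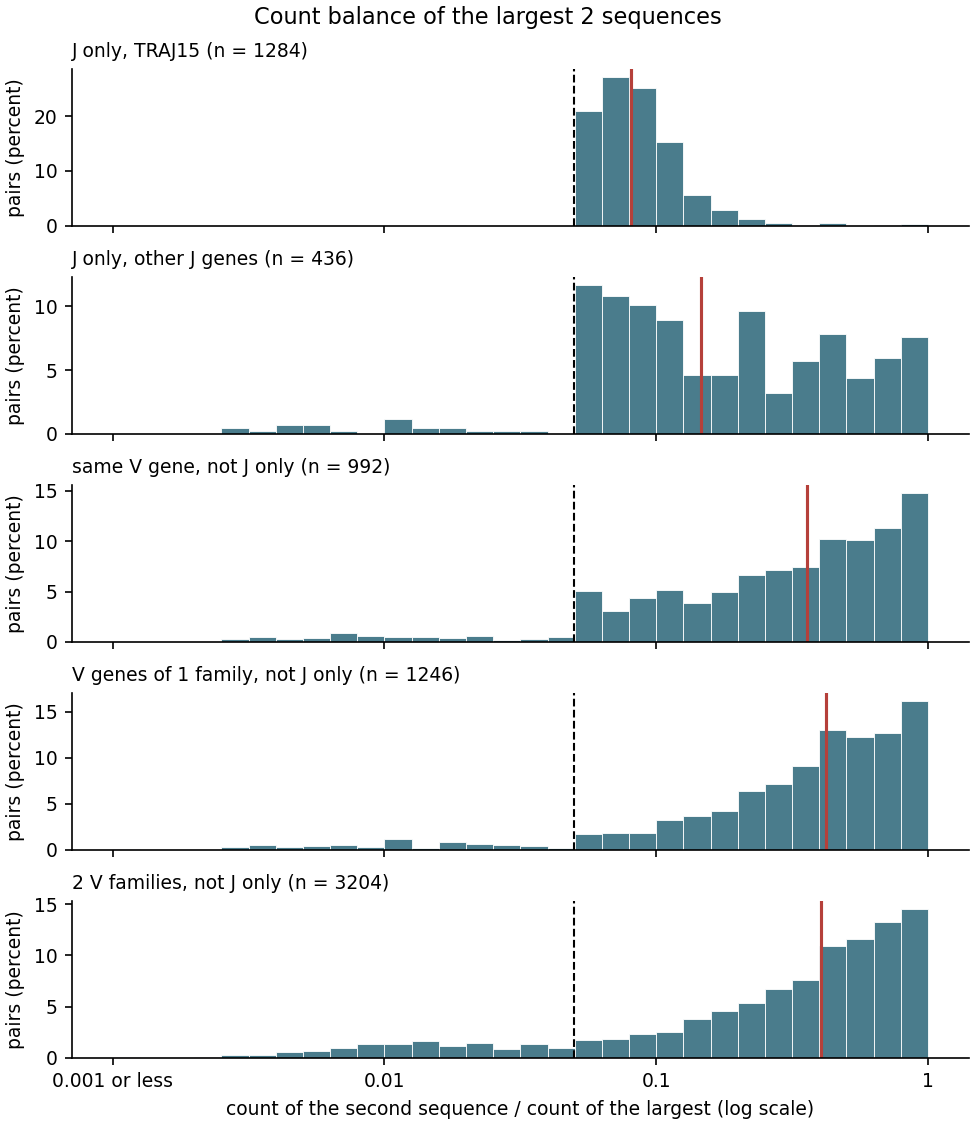
Count of the second largest sequence divided by that of the largest, on a log scale, for each kind of pair over 13 libraries; bars give the percent of pairs, the red line the median and the dashed line the ratio of 0.05 used in the study's correction. TRAJ15 pairs that differ only at J bases gather just above the dashed line (median 0.0804), whereas the other kinds of pair that do not differ only in J have medians of 0.360 to 0.422.

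Convergent CDR3s had fewer inserted bases than single CDR3s of the same library. The bases between the V and J segments numbered 1.53 ± 0.102 (SD, n = 13) per convergent CDR3, averaged over its sequences, and 2.35 ± 0.0575 per single CDR3. The difference was -0.814 ± 0.125, below 0 in 13 of 13 libraries, and the highest convergent value (1.71) was under the lowest single value (2.27). They were also shorter, at 13.23 ± 0.0651 against 13.57 ± 0.0231 residues, a difference of -0.336 ± 0.0616 seen in 13 of 13 libraries. Both passed an exact sign-flip permutation test over the 13 libraries (p = 0.000244, adjusted p = 0.000244 over 5 contrasts), the smallest value that the test allows. With J-only variants merged the differences were -0.953 bases and -0.388 residues, again in 13 of 13 libraries. Libraries share CDR3s, so these 13 differences are not fully independent. Inserted bases rest on the deposited segment positions, and bases assigned to V or J need not match germline. The TRAV4D-4 sequence with 153 counts printed above has 0 inserted bases, although its last capital, G, is in neither germline gene printed. The part of this in the difference was not tested.

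The percent of CDR3s that were convergent fell step by step with inserted bases. It was 14.4% ± 1.69 (SD, n = 13) with 0 inserted bases in the largest sequence, 12.4% ± 1.42 with 1, 10.6% ± 1.35 with 2, 7.97% ± 1.27 with 3, 6.62% ± 1.14 with 4, 5.27% ± 1.77 with 5 and 3.37% ± 1.15 with 6 or more. By length it was highest at 12 and 13 residues, at 13.8% ± 1.27 and 13.4% ± 1.39, and was 6.81% ± 1.71 at 11 or fewer residues and 2.14% ± 0.975 at 16 or more. With J-only variants merged it was 11.7% ± 1.23 with 0 inserted bases and 1.51% ± 0.682 with 6 or more.

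**Figure D4:**
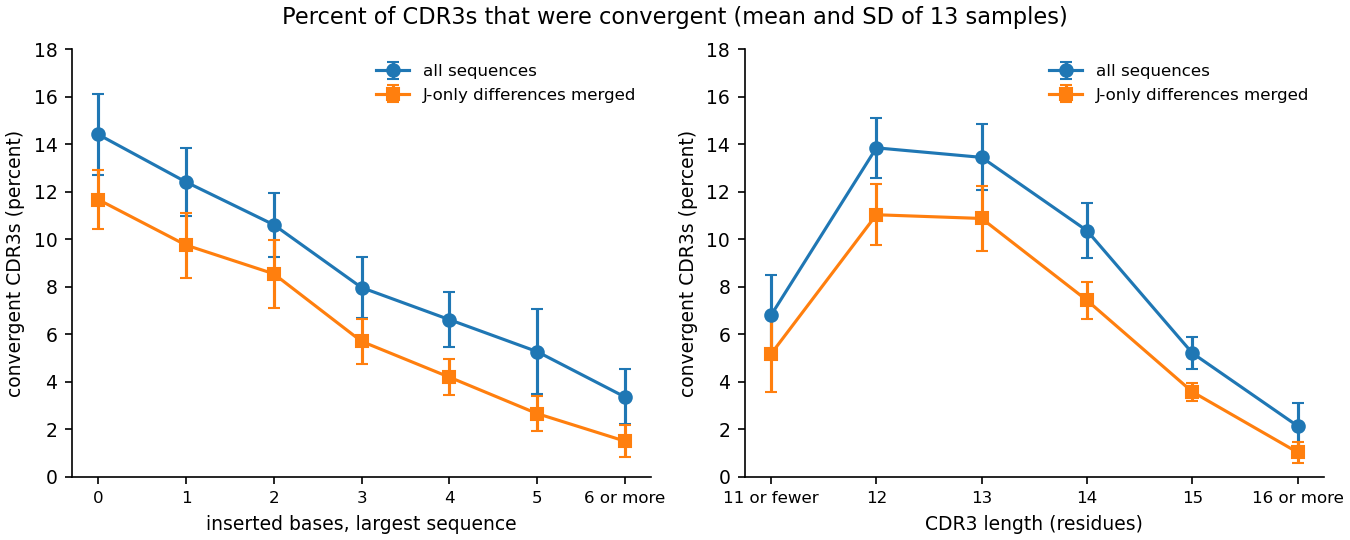
Percent of CDR3s that were convergent (mean and SD of 13 libraries) by inserted bases of the largest sequence (left) and by length in residues (right), for all sequences (circles) and with variants that differ only at J bases merged (squares). Both lines fall from 0 inserted bases (14.4% and 11.7%) to 6 or more (3.37% and 1.51%).

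Each nucleotide sequence of a convergent CDR3 had a mean log2 count of 5.24 ± 0.37 (n = 13), against 4.75 ± 0.51 for single CDR3s, higher in 13 of 13 libraries (exact sign-flip permutation p = 0.000244, adjusted p = 0.000244). This difference of 0.49 turned to -0.06 (exact permutation p = 0.0132) when sequences with 1 count were left out. With J-only variants merged it was 0.80, higher in 13 of 13 libraries.

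Convergent CDR3s were found in other libraries more often than single ones. Of convergent CDR3s, 86.3% ± 1.72 (n = 13) were found in at least 1 other library, against 54.2% ± 3.34 of single CDR3s. The lowest convergent value, 83.8%, was above the highest single value, 60.8%. Where a CDR3 that was convergent in one library was present in another, it was convergent there too in 47.2% ± 2.27 of cases, against 19.3% ± 1.48 for single CDR3s. Both differences, 32.0 ± 3.22 and 27.9 ± 1.43 percentage points, were positive in 13 of 13 libraries (exact sign-flip permutation p = 0.000244, adjusted p = 0.000244). With J-only variants merged they were 39.8 and 25.3 percentage points, and with variants within 2 mismatches merged the second was 17.0.

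**Figure D5:**
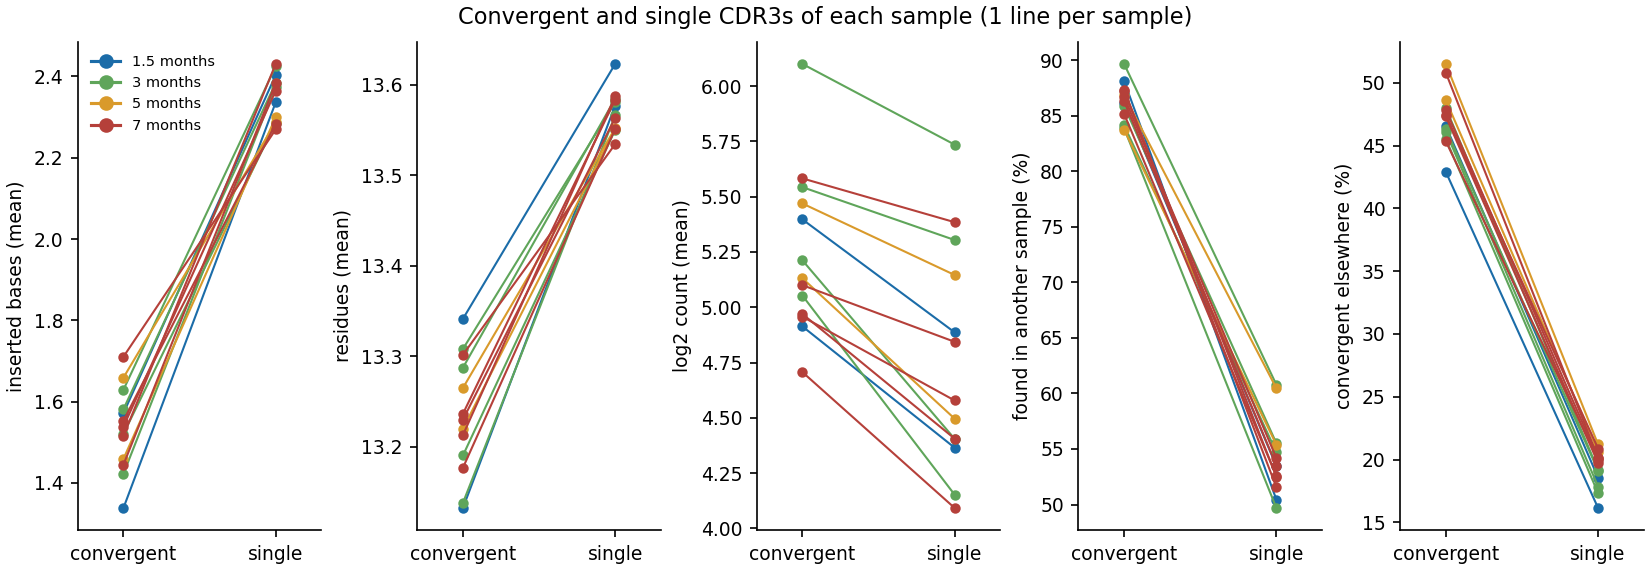
Convergent and single CDR3s of each library, 1 line per library, colored by months after treatment: mean inserted bases, mean length in residues, mean log2 count per nucleotide sequence, percent found in another library, and percent convergent in other libraries where present. Axes do not start at 0. All 13 lines run in the same direction in each panel.

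Nucleotide sequences of convergent CDR3s were also found in other libraries more often than those of single CDR3s. The largest sequence of a convergent CDR3 was found in another library in 56.0% ± 3.12 (n = 13) of cases, the other sequences in 53.3% ± 2.40, and the sequence of a single CDR3 in 32.4% ± 4.77. The ranges of the convergent CDR3s (50.4% to 61.9% and 48.7% to 56.7%) lay above that of the single ones (26.8% to 43.5%). Counts differed too, with a library median of 77 to 180.5 for the largest sequences, 20 to 54 for the others and 35 to 99 for the single ones. The part of counts in sharing was not tested, and these shares were not computed with J-only variants merged.

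Most of the distinct CDR3s were convergent in 1 library. Of 3943 CDR3s, 2737 (69.4%) were convergent in 1 library, 539 in 2, 227 in 3, and 8 in all 13. Counted per library, those 2737 were 38.2% of the 7162 members, so the other members were convergent in at least 2 libraries. CDR3s found in more libraries, which also had more chances to be so, were convergent in at least 1 more often: 983 of 29521 CDR3s found in 1 library were convergent (3.33%), and all 65 found in 13 libraries were convergent in at least 1. Those 65 were convergent in 69.8% of libraries on average, and CDR3s found in 2 to 6 libraries in 7.57% of the libraries that held them. With J-only variants merged, 323 of the 29521 found in 1 library were convergent (1.09%), and 64 of the 65 found in all were convergent somewhere, in 65.7% of libraries on average.

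Use of J genes and V families differed between convergent and single CDR3s, each CDR3 counted once. Of 35 J genes that made up at least 1% of CDR3s, 6 were higher among convergent CDR3s (17.1%) and 22 were lower (62.9%) in exact sign-flip permutation tests over 13 libraries, adjusted over 50 J genes and V families. Of 15 V families, 4 were higher (26.7%) and 8 lower (53.3%). TRAJ15 made up 21.0% ± 2.46 (SD, n = 13) of convergent and 1.65% ± 0.252 of single CDR3s, higher in 13 of 13 libraries (adjusted p = 0.000581). Its share among convergent CDR3s was 4.69% and among single ones 3.55% when J-only variants were merged. That left a difference of 1.13 percentage points, higher in 11 of 13 libraries (exact permutation, adjusted p = 0.00342).

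By library, 82 to 168 TRAJ15 CDR3s were convergent, 51.9% to 73.7% of those with that J gene, against 7.71% to 10.3% of CDR3s with other J genes. The highest values, 70.7% and 73.7%, were those of 3 months replicates 2 and 3. With J-only variants of all J genes merged, 8 J genes were higher among convergent CDR3s and 14 lower. Shares add up to 100%, and with TRAJ15 CDR3s left out of both groups 7 J genes were higher and 11 lower.

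TRAJ12, the J gene of the first CDR3 printed above, made up 5.05% ± 0.857 of convergent and 3.66% ± 0.343 of single CDR3s, higher in 12 of 13 libraries (exact permutation, adjusted p = 0.00210). TRAJ32 (1.40% against 2.76%), TRAJ9 (2.06% against 3.25%), TRAJ48 (0.614% against 1.78%) and TRAJ49 (1.46% against 2.47%) were lower in 13 of 13 libraries (exact permutation, adjusted p = 0.000581). All 4 were also lower with J-only variants merged, with differences of -1.11, -0.858, -1.02 and -0.581 percentage points. In TRAJ32, G stood in place of T at the 8th base from the CDR3 end in 11.1% of sequences, and the part of this in its share was not tested. With variants within 2 mismatches merged, TRAJ12 and TRAJ9 no longer passed, with differences of 0.908 (exact permutation, adjusted p = 0.310) and -0.344 (adjusted p = 0.639). With TRAJ15 CDR3s left out, the differences of TRAJ12, TRAJ9 and TRAJ49 were 2.67, -0.704 and -0.671 points, and all 5 J genes still passed.

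TRAV14, whose germline ends printed here encode CAAS, made up 20.8% ± 1.25 of convergent and 13.6% ± 0.377 of single CDR3s. TRAV7 made up 22.7% ± 1.98 against 17.7% ± 0.673, and TRAV3 7.42% ± 0.960 against 5.38% ± 0.355. TRAV13 (3.90% against 8.15%) and TRAV6 (7.24% against 9.94%) were lower. Each of these 5 families moved the same way in 13 of 13 libraries (exact permutation, adjusted p = 0.000581), and with J-only variants merged the differences were 8.96, 5.79, 2.63, -4.99 and -3.61 percentage points. With variants within 2 mismatches merged, the difference was 2.61 points for TRAV14, 13.7 for TRAV3 and -6.47 for TRAV6, and it was 0.846 for TRAV3 when each nucleotide sequence was counted. In GRCm38 the TRAV14 genes span chr14:52855614-53763694 (9 annotated genes), and the TRAV7 genes span chr14:52654817-53717291 (13 genes).

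The TRAV4 or TRAV14 with TRAJ12 CDR3 printed above had 8 and 5 nucleotide sequences at 1.5 months, 5, 4, 5 and 3 at 3 months, 6 and 2 at 5 months, and 4, 5, 4, 4 and 2 at 7 months. It held 0.0897% to 2.04% of functional counts (median 0.226%), with the highest value in 7 months replicate 5, where 99.4% of its 10828 counts were 1 sequence. In 5 months replicate 1 its largest sequence held 25.8%. Its total of 12 distinct nucleotide sequences came from 6 V families, and 5 different sequences were the largest in some library.

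Of the other CDR3s convergent in all 13 libraries, those whose amino acid letters can be misread as bases are given by V, J and the nucleotide sequence that was most often their largest. The V gene is the most frequent call of that sequence.
TRAV14D-1 and TRAJ22: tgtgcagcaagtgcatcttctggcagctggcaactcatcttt
TRAV7D-2 and TRAJ31: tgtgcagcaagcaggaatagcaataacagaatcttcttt
TRAV14D-1 and TRAJ42: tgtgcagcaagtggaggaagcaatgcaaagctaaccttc
TRAV7D-2 and TRAJ30: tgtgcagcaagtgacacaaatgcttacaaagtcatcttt

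The first of these CDR3s, of 14 residues with TRAJ22, had 2 to 5 nucleotide sequences in each of 13 libraries and, of the 6 named for being convergent in all 13, the narrowest range of levels, 0.173% to 0.302% of counts. The same sequence was its largest in 12 of 13 libraries. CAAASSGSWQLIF, of 13 residues and also with TRAJ22, had 2 to 7 sequences and 0.0584% to 0.307% of counts, and 4 different sequences were the largest. The TRAJ31 CDR3 had 2 to 7 sequences and 0.0301% to 0.191% of counts. The TRAJ42 CDR3 had 2 to 5 and 0.0178% to 0.225%, and was convergent in 12 libraries once J-only variants were merged. The TRAJ30 CDR3 had 2 to 5 and 0.00985% to 0.410% of counts. The highest level of these 5 lay in 7 months replicate 4, 1.5 months replicate 2, 1.5 months replicate 1, 3 months replicate 2 and 5 months replicate 2, in this order, so that each of the 4 time points held the highest level of at least 1.

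CDR3s were also ranked at each time point by their mean share of counts over the libraries in which they were convergent. At 1.5 months the first was a TRAJ13 CDR3 of 13 residues, which was convergent in all 13 libraries with 2 to 5 sequences and 0.0559% to 0.460% of counts. Its mean of 0.293% at 1.5 months came from 0.126% in replicate 1 and 0.460% in replicate 2. The TRAJ22 CDR3 of 14 residues was second, with a mean of 0.289%, and in replicate 1 was above it, at 0.297%. The sequences of the TRAJ13 CDR3 in 5 months replicate 1, where it had the most, differed at 3 bases, in capitals.
TRAV14D-2, 412 counts: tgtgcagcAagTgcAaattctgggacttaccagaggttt
TRAV14D-1, 112 counts: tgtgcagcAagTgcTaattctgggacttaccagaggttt
TRAV7-4, 85 counts: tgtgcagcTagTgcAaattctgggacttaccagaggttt
TRAV14D-1, 64 counts: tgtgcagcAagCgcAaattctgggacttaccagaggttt
TRAV14D-1, 26 counts: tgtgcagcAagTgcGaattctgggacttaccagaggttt

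The first of these was the largest sequence of the CDR3 in all 13 libraries. It had 0 inserted bases and equals the untrimmed germline end of TRAV14D-1 joined to the first base of TRAJ13.
TRAV14D-1, chr14:52856154-52856166: tgtgcagcaagtg
TRAJ13, chr14:54205741-54205797: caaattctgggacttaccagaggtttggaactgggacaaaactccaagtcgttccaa

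At the other time points the CDR3 ranked first was convergent in 1 library of the time point, so its mean rests on that library. At 3 months it was a TRAJ42 CDR3 of 14 residues, whose largest sequence in 4 of 8 libraries was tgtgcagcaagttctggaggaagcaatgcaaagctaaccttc, with 1.38% of counts in replicate 1, of which 98.5% were 1 sequence, and at most 0.0586% in any other library. At 5 months it was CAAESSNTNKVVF (TRAJ34), with 1.70% in replicate 1, 98.9% of it in 1 sequence, and 0.479% in 7 months replicate 3, where it was not convergent. At 7 months it was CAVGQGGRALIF (TRAJ15), with 2.45% in replicate 3 and at most 0.0925% elsewhere. These 3 were found in 8, 5 and 5 libraries and were convergent in 5, 2 and 4. With the mean taken over all libraries of the time point, at 0 where a CDR3 was not convergent, the TRAJ12 CDR3 ranked first at 3 months (0.516% of counts, against 0.344% for the TRAJ42 CDR3) and at 7 months (0.625%, against 0.491% for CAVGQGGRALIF), where replicate 5 held 2.04% and the other 4 libraries 0.0897% to 0.443%, while the CDR3s ranked first at 1.5 and 5 months were those named here. With the level in each library counted, convergent or not, a TRAJ23 CDR3, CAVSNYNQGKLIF, ranked first at 1.5 months (0.908%, against 0.293% for the TRAJ13 CDR3 in the rankings above); the CDR3s ranked first at 3, 5 and 7 months were those of the ranking with 0 where not convergent.

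The sequences of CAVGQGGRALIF in 3 months replicate 3, where it had the most, hold both kinds of difference at once: a glycine codon at the junction, and T20G in TRAJ15.
TRAV7-3, 347 counts: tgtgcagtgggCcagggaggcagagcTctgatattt
TRAV7-3, 188 counts: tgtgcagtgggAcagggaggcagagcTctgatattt
TRAV7-3, 25 counts: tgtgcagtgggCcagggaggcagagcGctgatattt
TRAV7-3, 18 counts: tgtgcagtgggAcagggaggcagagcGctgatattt

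Merging the J-only variants left 2 sequences of these 4, and left this CDR3 convergent in 2 libraries. The CDR3 with the 10 sequences printed above, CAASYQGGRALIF, was found in all 13 libraries with 1 to 10 sequences and 0.0186% to 0.281% of counts. It was convergent in 12 libraries, and in 10 with J-only variants merged, when it had at most 5 sequences.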

How the data were processed

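TCRα transcripts of 13 samples were amplified by 5′ RACE with a template-switch oligonucleotide that carried a random barcode for each cDNA molecule, and sequenced on a MiSeq. The authors assigned V and J genes with MiXCR, removed likely sequencing errors by frequency with VDJtools, and named the genome build GRCm38. The authors deposited, per sample, the count of each nucleotide CDR3 sequence (whether of reads or molecules is not given in the sources used here) and its fraction of the sample's counts; the deposited fraction was not used. The deposited positions of V end and J start within the CDR3 gave the inserted bases. No filter on counts was applied. Whether replicates were separate mice is not stated, so p-values measure only the spread between samples. Intervals were not computed, since it is not known whether counts are independent molecules.

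Rows whose amino acid sequence held only residue letters were functional. Time points were compared with 1.5 months by two-sided exact permutation of the 13 samples with a pooled SD, the largest of 3 statistics correcting within a measure, then Benjamini-Hochberg adjustment over 15 comparisons. Convergent and single CDR3s were compared within samples by exact sign-flip permutation, adjusted over 5 contrasts, or over 50 J genes and V families with at least 1% of CDR3s. Tests were checked on simulated data. Python 3.11.15, numpy, pandas and scipy were used; germline sequences and positions came from GENCODE M21 (GRCm38), in which all printed V and J genes were found by name. Named CDR3s were the 6 with the most sequences on average of 8 convergent in all samples, the one with the highest mean share of counts per time point (over the samples where it was convergent), that with the most sequences and that with the most V families in a sample (of 2 tied, the one with more sequences); named genes were up to 6 J genes and 5 V families with the largest median difference among those passing. Alternatives were each sample left out, a replicate block, only 2 groups, at least 2 counts, merging within 2 mismatches, removing sequences 100 times larger elsewhere, equal numbers of sequences or counts, and, chosen after seeing the data, merging J-only variants, requiring 2 V families and leaving out TRAJ15. The members and lists were chosen with earlier results of these data known.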

Additional observations from a re-analysis of the deposited data

Results flagged for a closer look

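The difference in length between convergent and single CDR3s was -0.233 residues in 7 months replicate 4, apart from the other 7-month samples, which lay between -0.374 and -0.334. About 1 in 20 such groups is singled out by chance, and 20 were examined.

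The excess of convergent over single CDR3s found in another sample was 27.4 percentage points at 5 months and 35.2 at 1.5 months, a difference of -7.82 (exact permutation p = 0.00919, corrected for 3 time points, 1 of 15 such comparisons). 5 months replicate 1 and 1.5 months replicate 1 each share more sequences than usual with 3 months replicate 4. The part of this in the difference was not tested.

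Sequences outside the functional set also held convergence. Of 10878 out-of-frame entries, 492 (4.52%) had 2 or more nucleotide sequences, 27 to 50 in each of the 13 samples, and 124 of the 492 used TRAJ15. Of 456 in-frame entries with a stop codon, 5 (1.10%) did so, in 3 samples.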

How the results depend on the processing

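The 5 contrasts between convergent and single CDR3s and the 11 named J genes and V families kept their direction in each alternative run for them (leaving out 1 sample, at least 2 counts, both kinds of merging, sequences larger elsewhere removed for genes, each sequence counted and TRAJ15 CDR3s left out, and for inserted bases, the largest variant only), except the log2 count difference, which was -0.061 at a minimum of 2 counts. Within 2 mismatches the difference in convergence elsewhere was 17.0 points and that in TRAJ15 2.88 points. With variants within 2 mismatches merged, TRAJ12 and TRAJ9 no longer passed, and the number of J genes lower among convergent CDR3s was 7, against 14 with J-only variants merged and 11 with TRAJ15 CDR3s left out. Time differences depended more on the processing; the cause was not tested, and passing refers to the p corrected for 3 time points. At equal numbers of sequences the differences at 3, 5 and 7 months turned to 11.4, 37.5 and 21.6 CDR3s and to 0.295, 0.968 and 0.552 percentage points of distinct CDR3s, and at 5 and 7 months, with J-only variants merged too, to 13.1 and 10.4 CDR3s and 0.329 and 0.26 points. The percent at 5 months passed with J-only variants merged (-1.59) and with 2 or more V families required (-1.02). The share of counts at 3 months turned to -0.36 within 2 mismatches, -0.937 with J-only variants merged and -0.36 with 2 V families. The share with 2 or more V genes turned to 0.342, 2.22 and 0.70 at 3, 5 and 7 months within 2 mismatches. The share of the largest variant passed at 3 and 7 months (2.60 and 2.45) at 2 counts or more, and at 7 months (2.18) without sequences larger elsewhere, and did not pass at 5 months within 2 mismatches (1.49) or with J-only variants merged (2.94). With only the 2 groups compared, 2 samples against 2 cannot go below p = 0.333 in the exact permutation test, so -265.5 CDR3s and 3.05 points at 5 months could not pass.

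The replicate numbers are not stated to pair samples, and deviations of samples with the same number correlated at -0.399 to -0.0173 over the 5 measures. With a replicate block the number at 7 months (-215.5) and the share of the largest variant at 5 months (3.05) no longer passed, and no other time comparison changed sides.

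Leaving out 1 sample gave -237 to 13 CDR3s at 3 months, -390.5 to -140.5 at 5 months and -335 to -85 at 7 months. The percent was -1.47 to 0.459 at 3 months, -2.38 to -0.450 at 5 months and -2.16 to -0.231 at 7 months. The share of counts was -1.44 to 2.84 at 3 months, -5.93 to -1.66 at 5 months and -6.03 to -1.75 at 7 months. The share with 2 or more V genes at 5 months was -6.43 to -5.66, and the share of the largest variant was 2.36 to 3.74 at 5 months and 1.40 to 2.78 at 7 months. The 1.5-month samples set both ends of each of these ranges. Without 1.5 months replicate 2 the number at 3 months was -237 CDR3s and the share of counts at 7 months -6.03 points. Leaving out either 1.5-month sample leaves only the other in its group, so the spread then comes from the other time points. The share with 2 or more V genes at 5 months passed without 3 months replicate 3 or 4 or 7 months replicate 1. The share of the largest variant at 7 months passed without 7 months replicate 1 or 4. Without either 5-month sample the number did not pass at 5 or 7 months. Sequences at 1 count limit the depth: the second of 2 sequences rested on 1 count in 7.95% to 23.8% of members with exactly 2.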

Other observations

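T-to-G differences at a fixed base of the J gene were not confined to TRAJ15. In TRAJ21 the 11th base from the CDR3 end was G in place of T in 39.0% of 4267 sequences and 6.21% of counts, and 90.6% of the sequences with G had a T partner in the same sample, at a median count ratio of 0.0811. In TRAJ13 the 12th base was G in 46.1% of 3288 sequences and 15.1% of counts (median ratio 0.179). In TRAJ35 the 8th base was G in 32.7% of 952 sequences and 5.04% of counts. At the 20th base of TRAJ35 the sequences with T, 49.5% of 945, held 75.8% of counts and G was the smaller partner, with T at a median of 3.11 times its count. In TRAJ32 the 8th and 19th bases were G in 11.1% and 11.98% of sequences, with 1.26% and 1.54% of counts. These positions were picked after their values were seen, from all J bases within 24 of the CDR3 end. In an in-frame CDR3 the 8th, 11th, 12th and 20th bases from its end do not close a codon. T to G there changes the encoded residue, unlike the synonymous T20G of TRAJ15. A G sequence and its T partner there encode separate CDR3s, which merging J-only variants did not join. The 19th base closes a codon, and whether G there alters the residue was not tested. How far these differences alter the numbers of distinct and single CDR3s was not tested.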
